A study of Homo sapiens with 9 samples.

Results

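Amino acids enter and leave human cells through carriers of the solute carrier families SLC1, SLC3, SLC6, SLC7, SLC36, SLC38 and SLC43, and the transcripts of these families were followed in 786-O cells depleted of ARNT or of BMAL1. All genes of the count table whose symbol places them in 1 of these 7 families were taken as members, which gave 59 of 38021 genes: 7 in SLC1, 2 in SLC3, 19 in SLC6, 13 in SLC7, 4 in SLC36, 11 in SLC38 and 3 in SLC43. Of these, 28 had a mean of at least 50 counts over the 9 libraries and are described as changed or not, while 31 fell under that mean and 11 of them had no read in any library. SLC7A8 lay just inside the limit with a mean of 56.3 counts, and SLC1A3 (47.3), SLC6A13 (45.3) and SLC38A11 (31.1) lay just outside it.

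The cells were 786-O, an established human line of clear cell renal carcinoma without working VHL, which therefore keeps HIF2α (EPAS1) at normal oxygen. They expressed a lentiviral short hairpin RNA (shRNA) from a PLKO.1 vector, either a control (shControl) or one against ARNT (shARNT) or against BMAL1 (shBMAL1), and all had been selected with puromycin. Each group had 3 RNA libraries labelled as biological replicates. The labels name the target and not the hairpin. The study's methods list more than 1 hairpin against BMAL1, and the labels do not say which was used here. Effects of a hairpin beyond its target were not tested. Nothing in the labels says whether the replicates of a group came from separate infections, so p-values measure the spread between these libraries. The genotype is labelled WT in every sample, and no drug or oxygen treatment is given.

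Libraries held 33793067 to 35444757 reads. ARNT had 2187 to 2551 normalised counts in shControl and 1199 to 1239 in shARNT, and BMAL1, listed as ARNTL, had 735 to 797 in shControl and 292 to 346 in shBMAL1, so each target was lower in every library with its own hairpin. The other target was also called lower, by a smaller amount. ARNTL had 568 to 676 in shARNT, log2 −0.26 (adjusted p 0.0293), and ARNT had 1928 to 2072 in shBMAL1, log2 −0.23 (adjusted p 0.0187), and the part of this in the members lowered by both knockdowns was not tested. Renal markers were present (PAX8 9452 to 10476 and EPAS1 10764 to 11765 in shControl), and many of them moved with the knockdowns. Under shARNT, VIM, EPAS1 and CA9 were called lower and KRT8, NNMT, CD70, CDH6 and CDH16 higher, with log2 fold changes from −2.85 for CA9 to 1.01 for CDH6. Under shBMAL1, PAX8, KRT18 and VIM were called lower and PAX2, CA9, NNMT, CDH6 and CDH16 higher, from −0.49 for PAX8 to 2.30 for CDH16. Their part in the members' differences was not tested. Of the 8 markers of other cell types, the leukocyte marker PTPRC, the endothelial marker VWF, the hepatocyte marker ALB and the thick ascending limb markers UMOD and SLC12A1 had at most 6.05 normalised counts in any library, PECAM1 and PDGFRB had at most 35.7, and COL1A1, a fibroblast marker, was the highest with 138 to 162 in shControl. It was called lower under shARNT, with 105 to 121 (log2 −0.41, adjusted p 0.0993), and its part in the differences was not tested. The share of reads in mitochondrial protein genes was 4.94% to 6.54% in shControl, 6.97% to 8.13% in shARNT and 7.93% to 8.60% in shBMAL1, and its part in the differences below was not tested.

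A cell brings in amino acids in steps. Sodium-coupled carriers such as SLC38A2 load the cell with glutamine and other small neutral amino acids, and exchangers then trade amino acids inside the cell for leucine, cystine or arginine from outside. Many SLC7 exchangers are light chains that reach the membrane bound to a heavy chain of the SLC3 family. When amino acids run short or the endoplasmic reticulum is stressed, the transcription factor ATF4 raises many of these carriers together with enzymes of amino acid synthesis, and binds C/EBP-ATF response elements (CARE). ARNT pairs with HIF proteins at hypoxia response elements, and BMAL1 pairs with CLOCK at E-boxes whose letters overlap those elements.

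Because ARNT, BMAL1 and ATF4 have such sites near target genes, the letters of these elements were searched on both strands in RefSeq promoter windows (GRCh38.p14), each with 250 bases before and 50 after a start. Of the 28 members, 22 had a window, and their 41 windows all matched GRCh37 over every base, so GRCh37 coordinates are given. The motifs and the split below were chosen with the expression values known, and a match is a description of letters and not of binding. TGATGNAA, the CARE letters, occurred in 3.62% of all 35116 windows and in 5 of the 41 member windows (12.2%). Those windows belonged to SLC1A4, SLC1A5, SLC38A1, SLC3A2 and SLC7A1. All of these were called lower in both knockdowns, a class in which 9 members had a window, whereas none of the 13 other members with a window held the letters. SLC7A11 and SLC43A3, also lowered in both, had no window and could not be searched. The background is a share of windows, while this split and those below count members, some with several windows. The share among all genes lowered in both was not worked out, so the split is not read as particular to these members. The 30 bases around each site are shown because these carriers fell together, 5′ to 3′ on the minus strand with the CARE letters in capitals.
SLC1A4: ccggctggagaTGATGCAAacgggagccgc
SLC1A5: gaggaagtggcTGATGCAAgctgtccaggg
SLC38A1: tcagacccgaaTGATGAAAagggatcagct
SLC3A2: ggagcTGATGTAAggagtcctgcacattac
SLC7A1: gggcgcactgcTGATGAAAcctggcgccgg
The SLC1A4 site, at chr2:65216515-65216544, lies in a noncoding part of an exon. For SLC1A5 the letters fall in a noncoding exon at chr19:47288150-47288179. The SLC38A1 site is intronic, at chr12:46660285-46660314. In SLC3A2 the window belongs to an internal start and the stretch, chr11:62649191-62649220, overlaps coding sequence. The SLC7A1 letters lie in a noncoding exon, at chr13:30169800-30169829.

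The E-box CACGTG, the site of BMAL1 with CLOCK, occurred in 7.26% of all windows and in 8 member windows (19.5%), of 8 members. The shorter hypoxia response element cores were common everywhere. ACGTG, which every E-box contains on both strands, was in 21.4% of all windows and 31.7% of member windows, and GCGTG in 36.5% and 53.7%. TGACNNNGC, the antioxidant response element, was in 13.3% and 14.6%, and like the CARE letters it was held by more of the members lowered in both knockdowns, 4 of 9 with a window (SLC1A5, SLC3A2, SLC7A1 and SLC7A5), than of the others, 2 of 13 (SLC7A6 and SLC7A7). E-boxes lay mostly outside that class, in 2 of its 9 members with a window (SLC1A5 and SLC7A5) and in 6 of the 13 others. The 7 members with an E-box ahead of a start are shown with the site in capitals, read along the gene, since their calls differ so widely; SLC38A7 had one after its start. SLC36A1 held another E-box nearer the same start, which is not shown.
SLC7A5: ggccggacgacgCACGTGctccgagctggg
SLC1A5: ggcgggagtggtCACGTGgacaggacgggg
SLC36A1: cgctcaagggagCACGTGacctcggcctct
SLC7A8: cacaattagaaaCACGTGctcagttccttc
SLC38A5: tcctgtagcggaCACGTGgcttgcctggga
SLC43A1: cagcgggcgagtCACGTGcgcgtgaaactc
SLC7A7: agaatgaaaaggCACGTGggtctggtgggg
Those of SLC7A5 (chr16:87903226-87903255), SLC38A5 (chrX:48328837-48328866) and SLC43A1 (chr11:57283270-57283299) lie upstream of the gene, 130, 206 and 112 bases before a start. The sites of SLC36A1 (chr5:150827109-150827138) and SLC7A8 (chr14:23623714-23623743) are intronic, and those of SLC1A5 (chr19:47290583-47290612) and SLC7A7 (chr14:23285288-23285317) are in noncoding exons. Under shBMAL1, SLC7A5, SLC1A5, SLC36A1 and SLC7A8 were called lower and SLC38A5, SLC43A1 and SLC7A7 were called higher.

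To compare levels between genes, mean normalised counts were divided by the length of the gene's MANE Select transcript. On this scale the heavy chain SLC3A2 led in shControl with 7808 per kb, followed by its light chain partner SLC7A5 with 7378, the facilitator SLC43A3 with 5827, the taurine carrier SLC6A6 with 5435 and the glutamine carrier SLC1A5 with 4919. Levels ranged down to SLC6A12 (35.9), SLC43A2 (27.4) and SLC7A8 (13.9). SLC38A2 (4792) and SLC6A8 (4569.7) stood next to SLC1A5. By group mean SLC3A2 was also first in shARNT with 5129 per kb, ahead of SLC38A2 with 4408, and SLC6A6 was first in shBMAL1 with 7675. These levels assume that the MANE Select transcript is the one expressed, and neighbours in the order were not tested against each other.

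**Figure D1:**
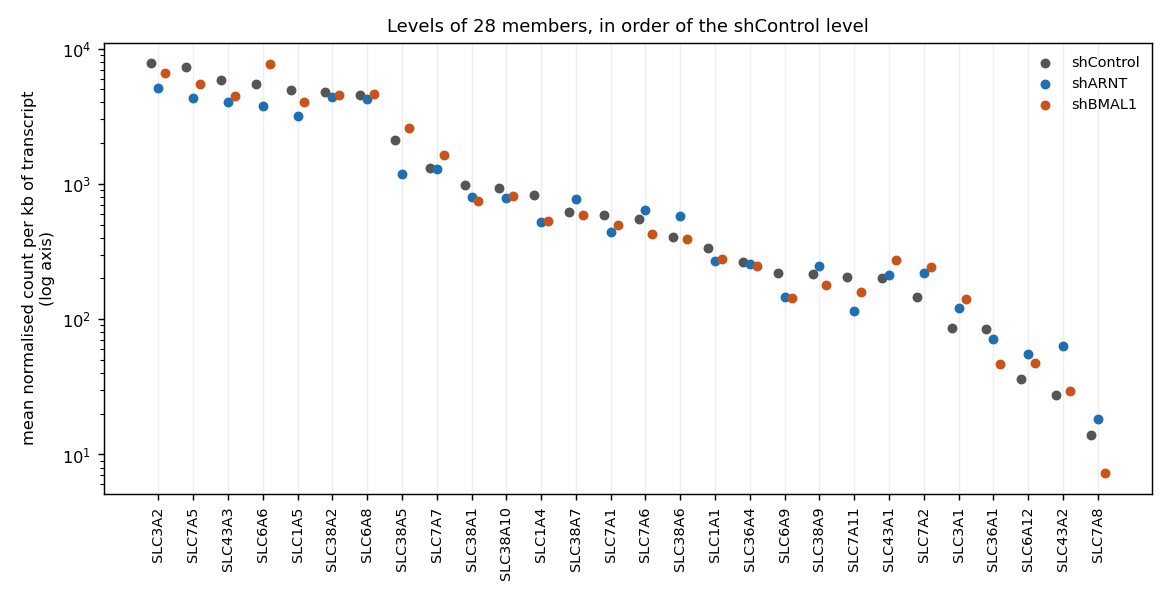
Mean normalised count per kb of transcript (log axis) for the 28 members with a mean of at least 50 counts, in order of the shControl level, with grey, blue and orange points for the shControl, shARNT and shBMAL1 means (3 libraries each). SLC3A2 led in shControl with 7808 and SLC7A8 came last with 13.9.

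Expression of most described members differed from shControl in each knockdown. A gene was called at a DESeq2 adjusted p under 0.1 over all genes tested. Under shARNT, 14 of the 28 members were called lower, 8 higher and 6 not called, so that 78.6% were called. The background was 35.4% of all genes tested and 39.6% of genes with a mean of at least 50, made up of 21.2% lower and 18.4% higher. The members' median log2 fold change was −0.17, against −0.00012 for genes with a mean of at least 50, and their median absolute change was 0.46 against 0.16. In RNA pooled from a whole culture, fewer cells that express a gene and less RNA per cell cannot be told apart.

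Under shBMAL1, 15 members were called lower, 6 higher and 7 not called (75.0% called). Here 36.8% of all genes tested and 47.6% of those with a mean of at least 50 were called, 26.8% lower and 20.8% higher. The members' median was −0.23 against −0.02, and their median absolute change 0.34 against 0.22. The 3 control libraries serve both knockdowns, so the 2 sets of values are not independent. In the direct comparison of shBMAL1 with shARNT, which uses no control library, 7 members were lower, 10 higher and 11 not called (60.7% called). Of all genes tested there, 36.3% were called, and of those with a mean of at least 50 the share was 44.6%, with 24.2% lower and 20.4% higher.

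The calls of the 28 members fell into these classes. SLC1A1, SLC1A4, SLC1A5, SLC38A1, SLC38A10, SLC3A2, SLC43A3, SLC6A9, SLC7A1, SLC7A11 and SLC7A5 were lower in both knockdowns (11 members), and SLC3A1 and SLC7A2 were higher in both. Of all genes with a mean of at least 50, 12.1% were called lower in both and 8.18% higher in both, and the shared control libraries bear on these shares and on the members' counts alike. SLC38A5 and SLC6A6 were lower under shARNT and higher under shBMAL1, as were 2.05% of all genes at this mean. The reverse held for SLC38A9 and SLC7A6 and for 2.08% of all genes. Under shARNT alone, SLC38A6, SLC38A7, SLC43A2 and SLC6A12 were called higher and SLC38A2 lower, and under shBMAL1 alone SLC43A1 and SLC7A7 were called higher and SLC36A1 and SLC7A8 lower. The direct comparison called 6 of the 11 members lowered in both and all 4 that went opposite ways. It also called 7 of the 9 called in only 1 knockdown, the exceptions being SLC6A12 and SLC38A2. Lying on opposite sides of the control makes a direct call likely, since the same knockdown libraries are compared. Shares of all genes called in only 1 knockdown, and of direct calls within each class, were not worked out. Nothing particular to the members is read from these counts. Neither knockdown called SLC36A4 or SLC6A8.

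**Figure D2:**
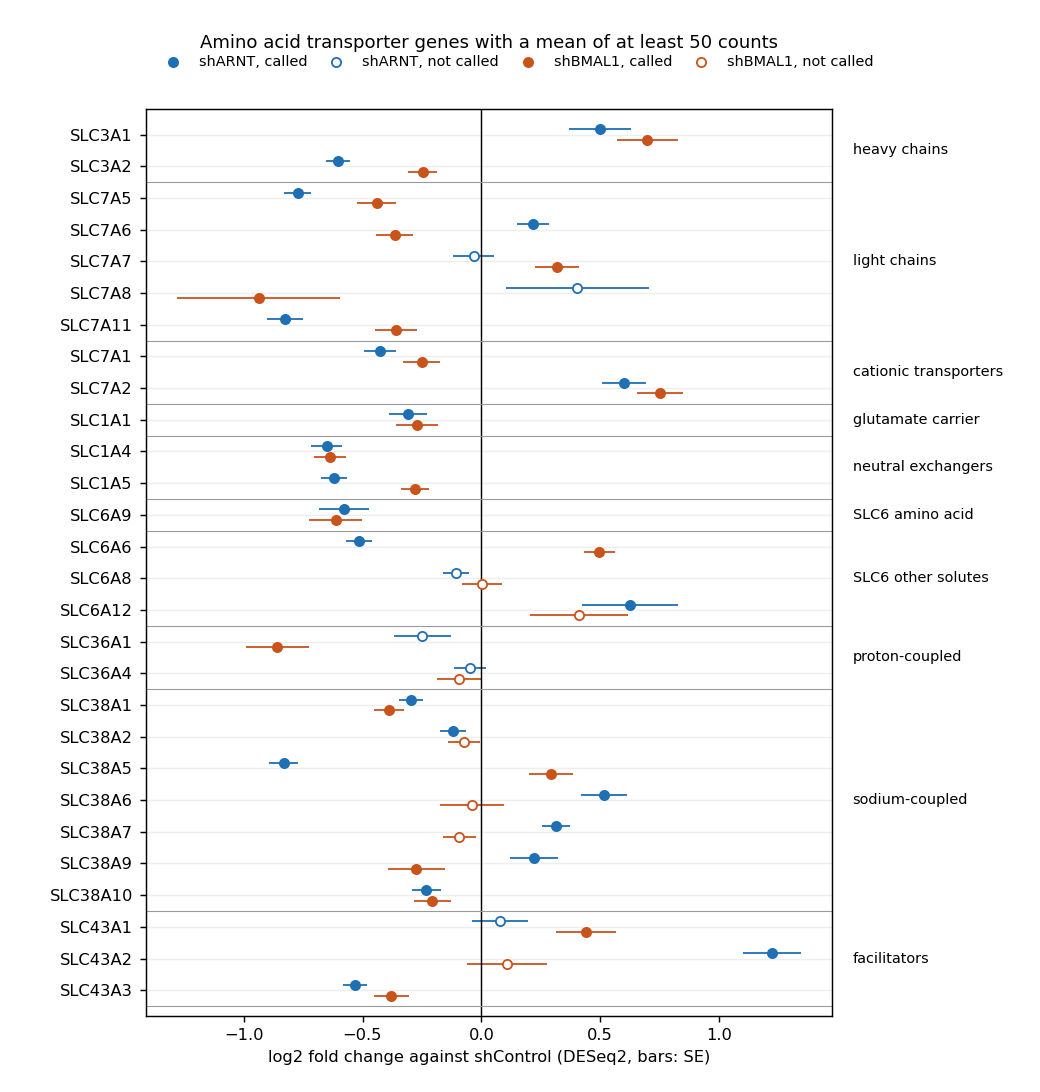
DESeq2 log2 fold change against shControl (horizontal axis, bars show the SE) for the 28 members grouped by role, with blue points for shARNT and orange for shBMAL1, 3 libraries against 3, and filled points for an adjusted p under 0.1. SLC7A5, SLC7A11 and SLC1A5 lie further left under shARNT (−0.77, −0.83 and −0.62) than under shBMAL1 (−0.44, −0.36 and −0.28), while SLC38A5 and SLC6A6 lie on opposite sides of 0.

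The 2 heavy chains moved in opposite directions. SLC3A2 (4F2hc, CD98), at chr11:62623476-62656352, plus strand on GRCh37, carries the light chains for large neutral amino acids and cystine. Its normalised counts were 13947, 15399 and 14806 in shControl, 9624, 9859 and 9523 in shARNT and 12694, 12426 and 12133 in shBMAL1. No groups overlapped, with shARNT lowest and shBMAL1 between. SLC3A2 fell by 34.2% under shARNT, log2 −0.60 (adjusted p 4.02e-30, SE 0.05), and fell by 15.7% under shBMAL1, −0.25 (adjusted p 0.000414, SE 0.06). The direct comparison gave 0.36 (adjusted p 4.78e-09, SE 0.06), so the level was higher in shBMAL1 than in shARNT.

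SLC3A1 (rBAT), the heavy chain of the cystine and dibasic amino acid carrier of the kidney tubule, rose instead. Counts were 255, 269 and 245 in shControl, 359.5, 388 and 336 in shARNT and 406, 415 and 426 in shBMAL1. Each knockdown library lay above every control library. The rise was 41.4% under shARNT, log2 0.50 (adjusted p 0.000947, SE 0.13), and 62.1% under shBMAL1, 0.70 (adjusted p 6.43e-07, SE 0.13). Per kb of transcript it remained far below SLC3A2 in shBMAL1 (140.0 against 6588). SLC7A9, its light chain partner in the kidney, had a mean of 0.778 counts.

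Among the light chains, SLC7A5 and SLC7A11 fell with SLC3A2. SLC7A5 (LAT1, chr16:87863629-87903113, minus strand) exchanges glutamine for leucine and other large neutral amino acids. Its counts were 31012, 35252 and 34579 in shControl, 19942, 20321 and 18667 in shARNT and 27904, 22076 and 24412 in shBMAL1. The shARNT libraries were all below the shBMAL1 libraries, and those were all below the control. SLC7A5 fell by 41.4% under shARNT, log2 −0.77 (adjusted p 3.38e-39, SE 0.06), and fell by 26.3% under shBMAL1, −0.44 (adjusted p 1.23e-06, SE 0.08), with a direct difference of 0.33 (adjusted p 0.000198, SE 0.08). None of 6 near-identical copies of members, among them pseudogenes of SLC7A5 and SLC6A8, was matched by name in the table, so reads they share could not be examined.

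SLC7A11 (xCT, chr4:139085251-139163503, minus strand) imports cystine in exchange for glutamate and so feeds glutathione synthesis. It had 1907, 2114 and 1891 counts in shControl, 1118, 1046 and 1164 in shARNT and 1368, 1642 and 1608 in shBMAL1. The order was the same as for SLC7A5, with no overlap. SLC7A11 fell by 43.6% under shARNT, log2 −0.83 (adjusted p 1.86e-25, SE 0.08), and fell by 22% under shBMAL1, −0.36 (adjusted p 0.000421, SE 0.09). In the direct comparison it was 0.47 (adjusted p 4.44e-06, SE 0.09). Its exons overlap SLC7A11-AS1 on the opposite strand, and the strand setting of the counting is not stated.

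The remaining light chains were not lowered by both knockdowns. SLC7A6 (y+LAT2), which trades cationic for neutral amino acids, had 3621, 3572 and 3129.8 counts in shControl, 4039, 3794 and 4139.8 in shARNT and 2804, 2637 and 2591 in shBMAL1. All shARNT libraries were above and all shBMAL1 libraries below the control. Log2 fold changes were 0.22 (adjusted p 0.00621, SE 0.07) and −0.36 (adjusted p 2.36e-05, SE 0.08), and −0.58 (adjusted p 3.67e-15, SE 0.07) in the direct comparison. Its exons overlap SLC7A6OS on the other strand, so its value is uncertain. SLC7A7 (y+LAT1), the related exchanger of epithelia, was called only under shBMAL1, where it rose by 24.5%, log2 0.32 (adjusted p 0.00317, SE 0.09), from 2314 to 2967 counts in shControl to 3254 to 3613. Without shControl replicate 3 this rise was 0.21. Under shARNT it was −0.03 (adjusted p 0.832, SE 0.09).

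SLC7A8 (LAT2), an exchanger of neutral amino acids of the proximal tubule, was the least abundant described member. Counts were 66.4, 60.0 and 50.5 in shControl, 92.6, 93.3 and 47.7 in shARNT and 30.8, 40.3 and 21.5 in shBMAL1. The shBMAL1 libraries lay below all others, and the shARNT group overlapped the control. It fell by 47.8% under shBMAL1, log2 −0.94 (adjusted p 0.0237, SE 0.34), while shARNT gave 0.40 (adjusted p 0.338, SE 0.30) and the direct comparison −1.34 (adjusted p 0.000833, SE 0.35). The shBMAL1 call was lost without shControl replicate 1 (adjusted p 0.125, log2 −0.85) and without shBMAL1 replicate 3 (adjusted p 0.147, log2 −0.73).

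Because SLC3A2 serves several light chains, the makeup of its partners per kb was also set out. SLC7A5 made up 75.4% to 80.7% of the summed light chain level (SLC7A5, SLC7A6, SLC7A7, SLC7A8 and SLC7A11) in shControl, 66.9% to 69.3% in shARNT and 68.6% to 72.4% in shBMAL1. SLC7A6 took 5.32% to 6.42% in shControl, 9.43% to 10.8% in shARNT and 5.30% to 5.97% in shBMAL1. SLC7A7 took 11.8% to 15.8%, 19.2% to 21.0% and 20.5% to 22.9%. SLC7A5 therefore held a smaller share in every knockdown library, with SLC7A6 and SLC7A7 larger in shARNT and only SLC7A7 larger in shBMAL1. SLC3A2 over the summed light chains was 0.82 to 0.83 in shControl, 0.78 to 0.82 in shARNT and 0.80 to 0.93 in shBMAL1, ranges that overlap. These are transcript levels, and protein was not measured in this series.

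The cationic amino acid carriers SLC7A1 and SLC7A2 split in the same way as the heavy chains. SLC7A1 (CAT1), the widely expressed arginine and lysine carrier, had 4328, 4582 and 4153 counts in shControl, 3208, 3486 and 3009.6 in shARNT and 3943, 3741 and 3313 in shBMAL1. Both knockdown groups lay below the control and overlapped each other. SLC7A1 fell by 25.5% under shARNT, log2 −0.43 (adjusted p 2.57e-09, SE 0.07), and fell by 15.9% under shBMAL1, −0.25 (adjusted p 0.00632, SE 0.08). The direct difference of 0.18 (adjusted p 0.0866, SE 0.08) was no longer called in 4 of the 6 fits that left out a library, those without shARNT replicate 1 or 3 or shBMAL1 replicate 1 or 2, where it ranged down to 0.13.

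SLC7A2 (CAT2), the inducible carrier of the same substrates, had 1116, 1199.5 and 1001 counts in shControl, 1705, 1841 and 1469 in shARNT and 2069, 1844 and 1676 in shBMAL1. Every knockdown library was above the control group. It rose by 51.6% under shARNT, log2 0.60 (adjusted p 2.19e-09, SE 0.09), and by 68.3% under shBMAL1, 0.75 (adjusted p 4.47e-13, SE 0.10), the most raised described member there. The direct comparison gave 0.15 (adjusted p 0.252, SE 0.10) and was not called. Per kb SLC7A1 stood at 593 and SLC7A2 at 145 in shControl, and at 499 and 245 in shBMAL1.

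All 3 described SLC1 carriers fell in both knockdowns. SLC1A5 (ASCT2, chr19:47278140-47291851, minus strand), the main sodium-dependent glutamine exchanger of many tumour cells, had 14128, 14256 and 14149 counts in shControl, 8529, 9598 and 9508 in shARNT and 12068, 11628 and 11402 in shBMAL1. The control libraries lay within a narrow band, and no groups overlapped. SLC1A5 fell by 34.9% under shARNT, log2 −0.62 (adjusted p 5.05e-28, SE 0.05), and fell by 17.6% under shBMAL1, −0.28 (adjusted p 8.57e-06, SE 0.06), and was 0.34 (adjusted p 2.33e-06, SE 0.07) in shBMAL1 against shARNT. Other exons overlap its own on the opposite strand, so its value is uncertain.

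SLC1A4 (ASCT1), which exchanges serine, alanine and cysteine, had 3692, 3945 and 3678 counts in shControl, 2295, 2334 and 2558 in shARNT and 2472, 2419 and 2393 in shBMAL1. The 2 knockdown groups overlapped at about the same level. SLC1A4 fell by 36.3%, log2 −0.65 (adjusted p 9.96e-23, SE 0.06), under shARNT and fell by 35.7%, −0.64 (adjusted p 2.54e-19, SE 0.07), under shBMAL1, with 0.02 (adjusted p 0.895, SE 0.07) between them. SLC1A1 (EAAT3), the glutamate and cysteine carrier of kidney and neurons, had 1226 to 1253 counts in shControl, 918 to 1074 in shARNT and 959 to 1103 in shBMAL1. It fell by 0.31 (adjusted p 0.00104, SE 0.08) and fell by 0.27 (adjusted p 0.00819, SE 0.09) on the log2 scale.

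**Figure D3:**
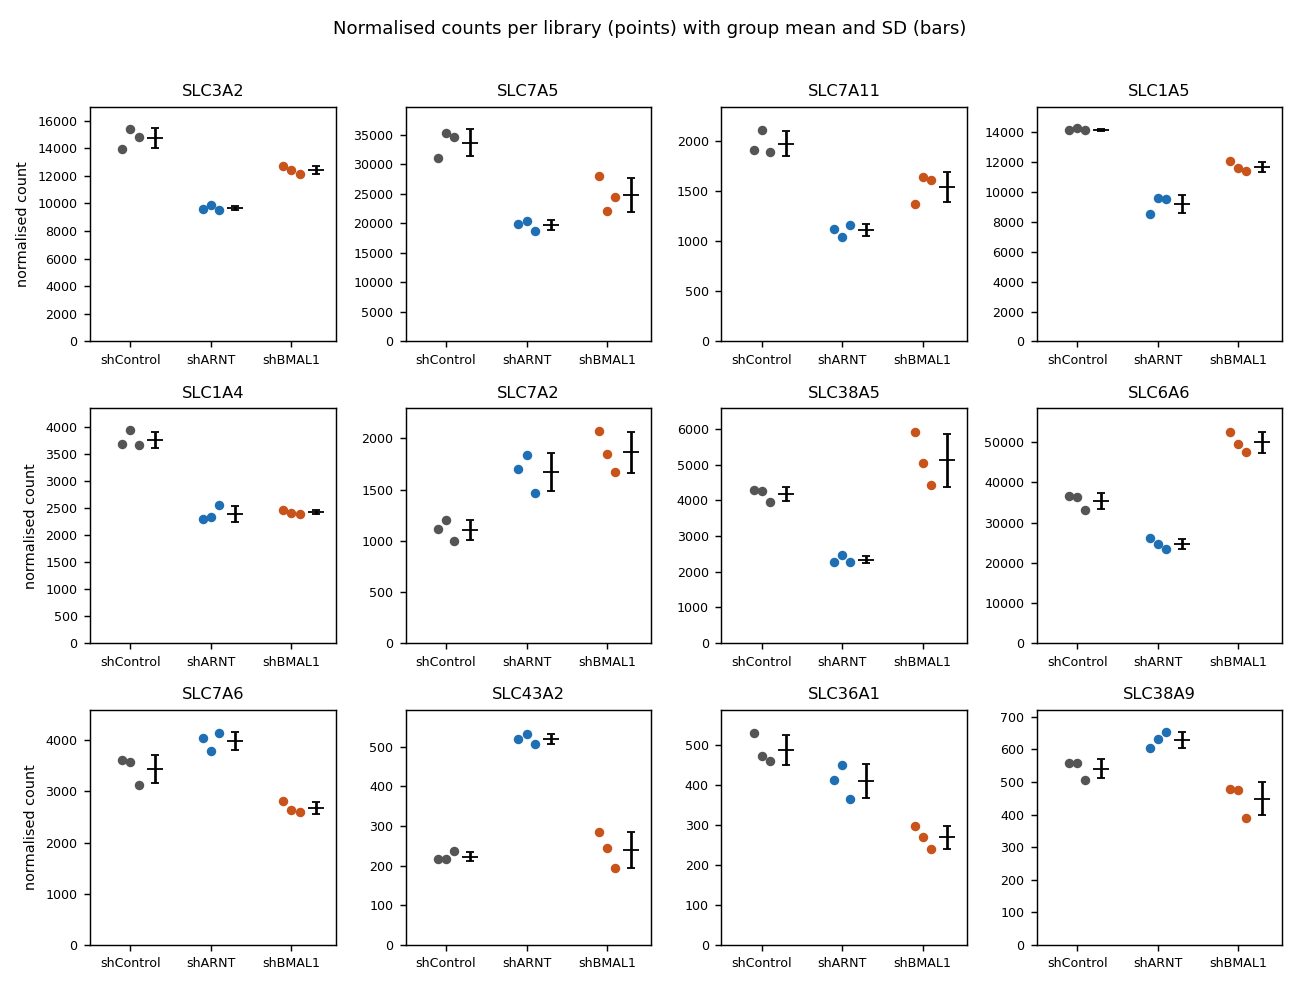
Normalised counts (vertical axes, from 0) of 12 members in each library, with grey, blue and orange points for shControl, shARNT and shBMAL1 and black bars for the mean and SD (n = 3). For SLC3A2, SLC7A5, SLC7A11 and SLC1A5 the shARNT libraries are lowest and the shBMAL1 libraries lie between, and for SLC38A5 and SLC6A6 the knockdowns lie on either side of the control.

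The SLC6 family, sodium- and chloride-coupled, was represented by 4 of its 19 genes. SLC6A6 (TauT, chr3:14444076-14530857, plus strand), which takes up taurine, had 36501, 36439 and 33100.5 counts in shControl, 26026, 24588 and 23412 in shARNT and 52586, 49548 and 47616 in shBMAL1. The groups were far apart, with shARNT below and shBMAL1 above the control. It fell under shARNT, log2 −0.52 (adjusted p 1.12e-18, SE 0.06), and rose by 41% under shBMAL1, 0.50 (adjusted p 7.99e-13, SE 0.07). The direct difference was 1.02 (adjusted p 1.08e-53, SE 0.06). Its exons overlap GRIP2 on the opposite strand.

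SLC6A9 (GlyT1), the glycine carrier, had 743, 643 and 713 counts in shControl, 477, 427 and 498 in shARNT and 492, 421 and 460.2 in shBMAL1. Both knockdowns were below the control in every library and overlapped each other. Log2 fold changes were −0.58 (adjusted p 6.43e-07, SE 0.11) and −0.61 (adjusted p 4.94e-07, SE 0.11), with a direct difference of −0.03 (adjusted p 0.889, SE 0.12). SLC6A12 (BGT1), the betaine and GABA carrier of the renal medulla, had 128, 126 and 92 counts in shControl, 191, 194 and 147 in shARNT and 158, 170.3 and 132 in shBMAL1. It rose under shARNT, log2 0.63 (adjusted p 0.00898, SE 0.20). Under shBMAL1 the value was 0.41 (adjusted p 0.125, SE 0.21), with every shBMAL1 library above the control, and edgeR called it (adjusted p 0.0552). The creatine carrier SLC6A8 had 17132 to 18459 counts in shControl, 15816 to 17622 in shARNT and 15601 to 20442 in shBMAL1, with log2 fold changes of −0.11 (adjusted p 0.125, SE 0.05) and 0.00 (adjusted p 0.987, SE 0.08). With TMM size factors the shARNT value was −0.12 and called (adjusted p 0.0849).

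Of the proton-coupled carriers, SLC36A1 (PAT1), which moves small amino acids out of lysosomes, had 530.3, 474 and 461 counts in shControl, 413, 451 and 367 in shARNT and 298, 271 and 239.9 in shBMAL1. The shBMAL1 libraries were lowest, the control highest, and no groups overlapped. It fell by 44.9% under shBMAL1, log2 −0.86 (adjusted p 1.3e-09, SE 0.13). The shARNT value was −0.25 (adjusted p 0.102, SE 0.12), just short of a call, and edgeR called it (adjusted p 0.0581). Direct comparison gave −0.61 (adjusted p 0.000102, SE 0.14). SLC36A4 (PAT4), a carrier of the same family, had 1575 to 1622 counts in shControl, and its log2 fold changes were −0.05 (adjusted p 0.676, SE 0.07) and −0.09 (adjusted p 0.508, SE 0.09).

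The SLC38 family of sodium-coupled neutral amino acid carriers was mixed. SLC38A5 (SNAT5, chrX:48316920-48328648, minus strand), which moves glutamine, serine and glycine, had 4306, 4277 and 3956 counts in shControl, 2287, 2461 and 2284 in shARNT and 5909.7, 5048 and 4436 in shBMAL1. It was the most lowered described member under shARNT, where it fell by 43.8%, log2 −0.83 (adjusted p 7.51e-39, SE 0.06), and rose by 22.6% under shBMAL1, 0.29 (adjusted p 0.00612, SE 0.09). The rise was 0.18 without shBMAL1 replicate 1, the highest library, and was still called. Between the knockdowns it differed by 1.13 (adjusted p 2.12e-32, SE 0.09).

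SLC38A1 (SNAT1), a glutamine importer, had 7638 to 8263 counts in shControl, 6292 to 6582 in shARNT and 5868 to 6283 in shBMAL1. It fell by 0.30 (adjusted p 1.69e-07, SE 0.05) and fell by 0.39 (adjusted p 1.35e-08, SE 0.06) on the log2 scale. SLC38A2 (SNAT2), the carrier that amino acid shortage induces, had 24004, 21814 and 23118 counts in shControl, 20226, 20867 and 22316 in shARNT and 20231, 22644 and 22732 in shBMAL1. All 3 groups overlapped. Its shARNT value of −0.12 (adjusted p 0.089, SE 0.05) was lost with edgeR (adjusted p 0.11) and without any of shControl replicates 1 and 3 and shARNT replicates 1 and 2, with −0.09 at its smallest. Under shBMAL1 it was −0.07 (adjusted p 0.466, SE 0.07).

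SLC38A9, a lysosomal arginine sensor that signals to mTORC1, had 557, 557 and 507 counts in shControl, 603, 631 and 653 in shARNT and 478, 477 and 389.7 in shBMAL1. The shARNT libraries were all above and the shBMAL1 libraries all below the control, and the direct comparison gave −0.49 (adjusted p 0.000158, SE 0.12). Each difference from the control was small, 0.22 (adjusted p 0.0784, SE 0.10) and −0.27 (adjusted p 0.0679, SE 0.12). The shARNT call was lost when any 1 of the 6 libraries was left out (adjusted p 0.108 to 0.275), and the shBMAL1 call without shControl replicate 1 or 2 or shBMAL1 replicate 3, the last of which brought it to −0.18.

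SLC38A7 (SNAT7), which exports glutamine from lysosomes, and SLC38A6 rose under shARNT. SLC38A7 had 2455 to 2593 counts in shControl and 3061 to 3179 in shARNT, log2 0.31 (adjusted p 9.08e-07, SE 0.06), and was 2318 to 2483 in shBMAL1, −0.09 (adjusted p 0.361, SE 0.07). SLC38A6 had 668, 656 and 621 counts in shControl, 847, 911 and 1018 in shARNT and 532, 797 and 567 in shBMAL1. It rose by 43% under shARNT, log2 0.52 (adjusted p 8.5e-07, SE 0.10), and was −0.04 (adjusted p 0.877, SE 0.14) under shBMAL1, where replicate 2 stood apart from the other two. Both were lower in shBMAL1 than in shARNT, with direct log2 differences of −0.40 and −0.55. SLC38A6 overlaps TRMT5 on the opposite strand. SLC38A10, whose substrates include glutamine and glutamate, fell by 0.23 (adjusted p 0.000865, SE 0.06) and fell by 0.21 (adjusted p 0.0289, SE 0.08) on the log2 scale. Its shBMAL1 libraries (3432 to 3988) overlapped the control (3944 to 4349), and that call was lost in 4 of 6 fits that left out a library (shControl 1 or 2, shBMAL1 2 or 3).

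The SLC43 facilitators each behaved differently. SLC43A2 (LAT4), which lets large neutral amino acids leave the cell, had 216, 216 and 236 counts in shControl, 518, 531 and 506 in shARNT and 284, 244 and 193 in shBMAL1. It rose by 133% under shARNT, the most of any described member, log2 1.22 (adjusted p 3.3e-22, SE 0.12). The shBMAL1 group overlapped the control, 0.11 (adjusted p 0.698, SE 0.17), and the direct difference was −1.11 (adjusted p 1.14e-13, SE 0.14). SLC43A1 (LAT3), with the same kind of substrates, had 483, 542 and 490.3 counts in shControl, 538, 600.1 and 458 in shARNT and 811, 646 and 601 in shBMAL1. It rose under shBMAL1, log2 0.44 (adjusted p 0.00219, SE 0.12), and was 0.08 (adjusted p 0.684, SE 0.12) under shARNT. Its direct difference of 0.37 (adjusted p 0.0214, SE 0.13) was lost without shARNT replicate 3 (0.27) or shBMAL1 replicate 1 (0.23).

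SLC43A3, known as a purine nucleobase carrier, had 14849 to 15685 counts in shControl, 10127 to 10929 in shARNT and 11052 to 13015 in shBMAL1. It fell by 0.53 (adjusted p 3.99e-25, SE 0.05) and fell by 0.38 (adjusted p 1.74e-06, SE 0.07) on the log2 scale. The direct difference of 0.16 was lost without any 1 of the 3 shARNT libraries or shBMAL1 replicate 1, which brought it to 0.08.

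Members summed by family show where the transcripts lie. All 59 together took 0.546% to 0.569% of a library's reads in shControl, 0.424% to 0.441% in shARNT and 0.537% to 0.573% in shBMAL1. The shARNT libraries were thus below every control library, while the shBMAL1 and control ranges overlapped. SLC6, most of it SLC6A6 and SLC6A8, took 0.145% to 0.161%, 0.115% to 0.125% and 0.189% to 0.211% in shControl, shARNT and shBMAL1. SLC7 went from 0.13% to 0.14% in shControl to 0.0899% to 0.0963% in shARNT and 0.104% to 0.120% in shBMAL1. SLC1 took 0.0543% to 0.0552%, 0.0342% to 0.0380% and 0.0437% to 0.0449%. In shBMAL1, therefore, a larger SLC6 share stood beside smaller SLC1 and SLC7 shares. These sums are of reads and weigh long transcripts more.

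Below the limit of 50 counts, 5 members held most of the reads, SLC38A11, SLC6A13, SLC1A3, SLC38A3 and SLC38A4. Another 15 (SLC1A2, SLC1A7, SLC36A3, SLC6A2, SLC6A3, SLC6A4, SLC6A7, SLC6A11, SLC6A16, SLC6A17, SLC6A20, SLC7A4, SLC7A9, SLC7A13 and SLC7A14) had between 1 and 20 counts in all libraries together. SLC1A6, SLC36A2, SLC38A8, SLC6A5, SLC6A14, SLC6A15, SLC6A18, SLC6A19, SLC7A3 and SLC7A10 had no read in any library, which at these depths allows up to 3 counts per library. The low members are given by their levels alone, with no call. SLC38A11, a little-studied SLC38 carrier, had 13.1, 8 and 11.1 counts in shControl, 5.85, 23.6 and 20.9 in shARNT and 58.6, 67.5 and 69.5 in shBMAL1. SLC6A13 (GAT2), a GABA and betaine carrier of kidney and liver next to SLC6A12 on chromosome 12, had 30.2, 14 and 22.2, 44.8, 25.5 and 14.9 and 72.5, 82.6 and 97.9 in the same order. In both, every shBMAL1 library was above every other library.

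SLC1A3 (EAAT1), a glutamate carrier best known in glia, had 57.4, 36 and 70.8 counts in shControl, 54.6, 78.6 and 74.5 in shARNT and 17.9, 15.1 and 18.6 in shBMAL1. Its shBMAL1 libraries were below all others, and the shARNT libraries overlapped the control. SLC38A3 (SNAT3), the glutamine carrier of liver and kidney, had 8.05, 5 and 1.01, 6.82, 5.89 and 0 and 19.9, 32.3 and 21.5 counts in these groups, highest in shBMAL1. SLC38A4 (SNAT4) had 0, 3 and 0 in shControl, 9.74, 8.84 and 12.9 in shARNT and 10.9, 13.1 and 9.79 in shBMAL1, above the control in both knockdowns. Counts this low carry a large counting error.

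**Figure D4:**
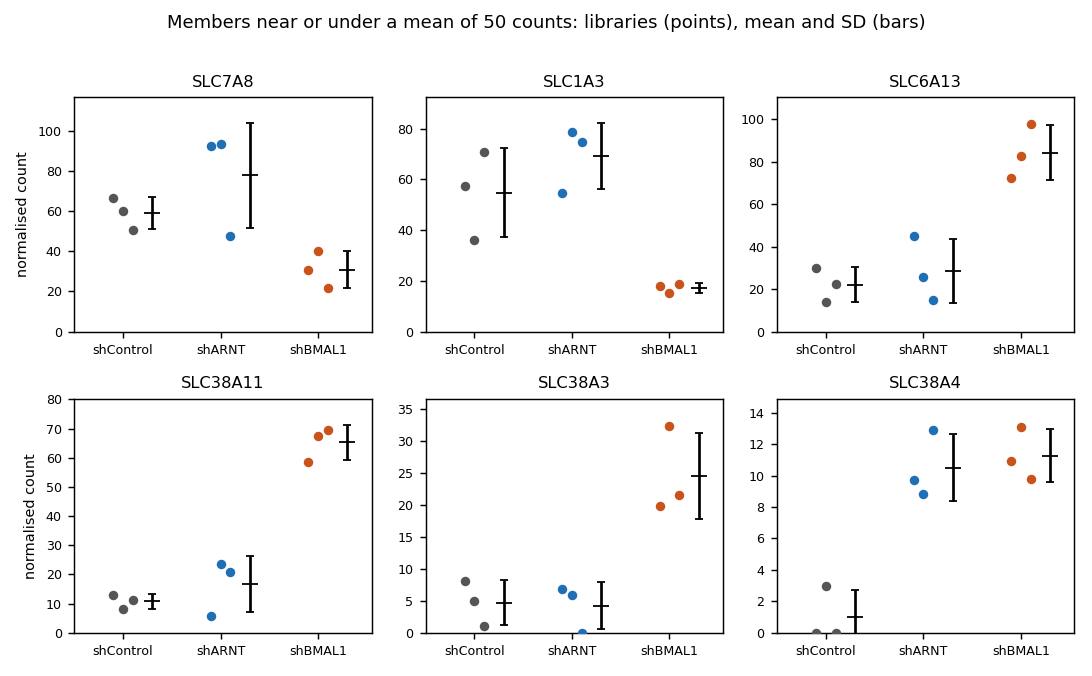
Normalised counts (vertical axes, from 0) of SLC7A8 and of 5 members under a mean of 50, in each library, with points coloured by group and black bars for the mean and SD (n = 3). SLC38A11 and SLC6A13 are higher and SLC1A3 is lower in all 3 shBMAL1 libraries than in any other library.

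Genes that respond to amino acid shortage or sense it were set beside the transporters. Of 26 such genes, ATF4 itself, its partners and its targets among them, 24 had a mean of at least 50. These include EIF2AK4 and GCN1, which sense the shortage and are not targets of ATF4 here. Both were called lower under shARNT (−0.25 and −0.20) and under shBMAL1 (−0.51 and −0.65), and they count in the numbers below. Under shARNT 20 of the 24 were called lower and 2 higher, with a median log2 fold change of −0.48, where 39.6% of all genes at this mean were called. The secreted glycoprotein STC2 changed by −1.43 (adjusted p 5.57e-66, SE 0.08), and the transsulfuration enzymes CTH and CBS by −1.22 (adjusted p 1.64e-26, SE 0.11) and −1.18 (adjusted p 1.64e-28, SE 0.10). CEBPB (0.49) and GDF15 (0.61) were the ones called higher. Under shBMAL1 13 were lower, 2 higher and 9 not called, with a median of −0.24, where 47.6% of all genes at this mean were called. There PPP1R15A, a phosphatase subunit that resets eIF2α, changed by −0.83 (adjusted p 7.29e-21, SE 0.08) and EIF4EBP1, a brake on translation, by −0.84 (adjusted p 9.55e-14, SE 0.11). ATF4 and asparagine synthetase ASNS were picked out for their roles after their values were seen. ATF4 fell in both knockdowns, with log2 fold changes of −0.41 (adjusted p 2.34e-12, SE 0.05) and −0.30 (adjusted p 6.17e-07, SE 0.06). ASNS fell under shARNT, −1.17 (adjusted p 2.39e-49, SE 0.08), and was −0.17 (adjusted p 0.185, SE 0.10) and not called under shBMAL1. In shBMAL1 against shARNT 15 of the 24 were higher and 6 lower, with a median of 0.27 and 44.6% of all genes at this mean called, and the largest difference was in NUPR1, 1.45 (adjusted p 3.1e-15, SE 0.17). The list was drawn up with results of these data known, and its counts are read here only beside the backgrounds given above.

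**Figure D5:**
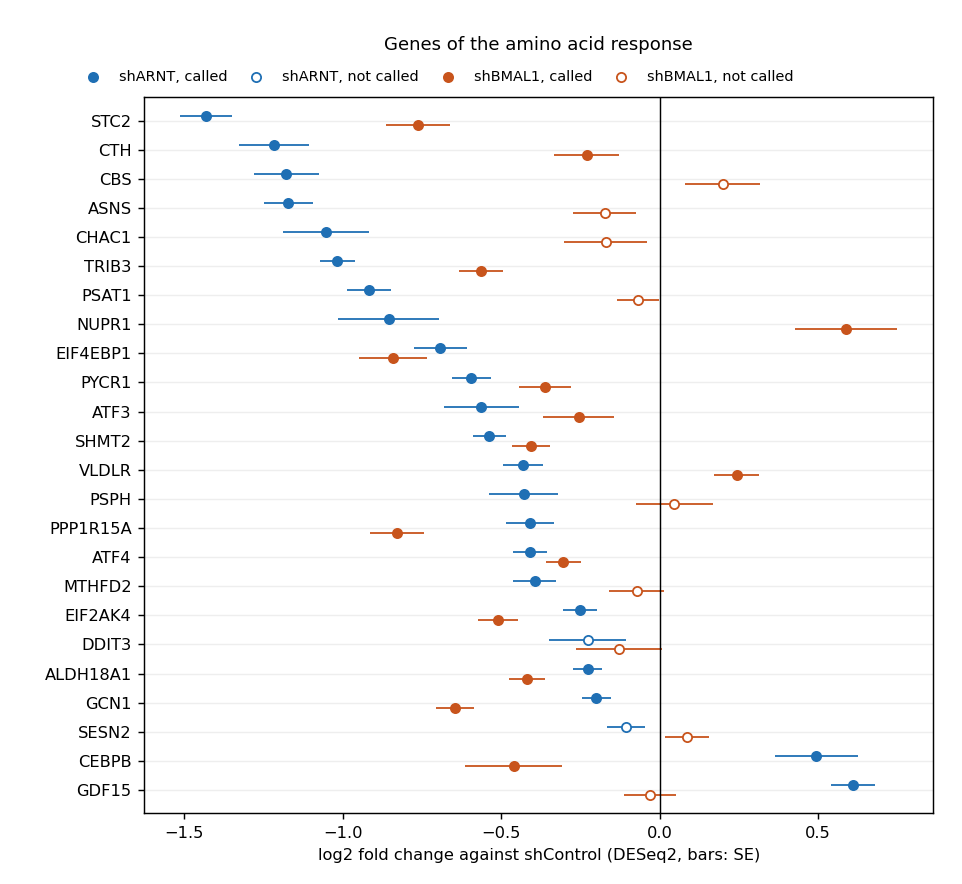
DESeq2 log2 fold change against shControl (horizontal axis, bars show the SE) of the 24 amino acid response and sensing genes with a mean of at least 50, with blue points for shARNT, orange for shBMAL1 and filled points for an adjusted p under 0.1. Most blue points lie left of 0, down to −1.43 for STC2, and the orange points of ASNS, PSAT1 and CBS lie near 0 or above (−0.17, −0.07 and 0.20).

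Lysosomal amino acid sensing couples SLC38A9 and SLC36A1 to mTORC1 through the Rag GTPases. Of 29 such genes with a mean of at least 50, 4 were lower and 6 higher under shARNT, and 5 were lower and 7 higher under shBMAL1. Of all genes with a mean of at least 50, 39.6% and 47.6% were called, and nothing particular to these genes is read from their counts. FNIP2, which acts with folliculin on the Rag GTPases, rose under shARNT (1.13 (adjusted p 3.98e-58, SE 0.07)), and SEC13, a subunit of the GATOR2 complex, fell under shBMAL1 (−0.68 (adjusted p 1.2e-17, SE 0.08)). In the direct comparison, where 44.6% of all genes with a mean of at least 50 were called, 6 of the 29 were lower and 4 higher.

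Amino acid carriers of other families were counted in the same way. Of 13 with a mean of at least 50, 2 were lower and 4 higher under shARNT, 3 lower and 1 higher under shBMAL1, and 3 lower and 1 higher in the direct comparison. Of all genes at this mean, 39.6%, 47.6% and 44.6% were called in these comparisons, and nothing particular to the list is read from its counts. SLC15A3, a lysosomal peptide and histidine carrier, fell in both knockdowns (−0.71 and −0.99). SLC17A5, the lysosomal sialic acid and acidic amino acid carrier, rose under shARNT (0.46 (adjusted p 8.5e-10, SE 0.07)) and fell under shBMAL1 (−0.54 (adjusted p 3.38e-10, SE 0.08)). Of the accessory proteins that carriers need at the membrane, 2 had a mean of at least 50. Neither was called under shARNT or in the direct comparison, and BSG rose under shBMAL1 (0.23 (adjusted p 0.00874, SE 0.07)).

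The glutathione genes use the cystine that SLC7A11 imports. Of 11 with a mean of at least 50, 2 were lower and 2 higher under shARNT, and 3 were lower and 3 higher under shBMAL1, with 39.6% and 47.6% of all genes at this mean called. GCLM, the modifier subunit of the first enzyme of the pathway, fell under shBMAL1 (−0.77 (adjusted p 8.69e-17, SE 0.09)), where GGT7 rose (0.98 (adjusted p 1.23e-25, SE 0.09)). CHAC1, which breaks glutathione down and belongs to the amino acid response as well, fell under shARNT (−1.05 (adjusted p 1.81e-13, SE 0.13)). The direct comparison called 6 lower and 4 higher, with 44.6% of all genes at this mean called.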

How the data were processed

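RNA was sequenced from 786-O cells of 3 shRNA groups with 3 libraries each, grouped by the sample titles. The values were estimated counts, deposited by the authors as each gene's total of reads, not log-transformed. The methods of the study name GRCh37 with SeqMan NGen and ArrayStar, whereas the submitters' processing notes name STAR, DESeq2 and hg38, so the aligner is uncertain. The annotation and the strand setting are not given in the sources used here. In consequence the 11 described members whose exons overlap a gene on the opposite strand are uncertain (SLC1A5, SLC3A1, SLC6A6, SLC6A8, SLC6A9, SLC6A12, SLC7A5, SLC7A6, SLC7A11, SLC38A6 and SLC38A10).

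Zeros stood as a placeholder of 0.009 (46.3% of the cells) and were restored. Fractions, found in 6.14% of the remaining values and in 2 members, were rounded. Rows of 1 name were added, which left 38021 genes from 38074 rows, and 28 rows with a symbol turned into a date were kept apart. No libraries were copies, since chi-square per degree of freedom between libraries was 7.18 to 16.4 within groups and 44.5 to 93.9 between them.

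Each comparison was fitted on its 6 libraries with DESeq2 1.42.0 in R 4.3.3 (median-of-ratios size factors, two-sided Wald test, independent filtering at 0.1, Benjamini-Hochberg adjustment over all genes tested) and called at an adjusted p under 0.1. The study's methods name DESeq2, and the legends of its results give this limit for some comparisons and a stricter one for others. Normalised counts use size factors over all 9 libraries. The fits were tested on simulated data first. Alternatives were edgeR 4.0.16 quasi-likelihood with TMM, TMM size factors in DESeq2, at least 10 counts in at least 3 libraries, a mean of at least 10, an adjusted p under 0.05, a change of at least 1.5-fold, a fit of all 9 libraries, a replicate block and leaving out each library. Depth limits only the low members, where a member without a read may have up to 3 counts per library by counting error alone.

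Library values are given for SLC3A2, SLC7A5, SLC7A11, SLC7A1, SLC1A5, SLC38A2, SLC38A9, SLC7A8 and SLC6A6, named for their roles, and for the 4 most lowered and 4 most raised called members in each knockdown. SLC7A6 and the low members were given library values after they were seen. From each other list at most 3 called genes were named by size of change in a comparison, besides genes singled out as such. Not every member and overlapping gene is reported here by name. The members and lists were chosen with earlier results of these data known. Gene coordinates are 1-based, from GENCODE v44 lifted to GRCh37.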

Additional observations from a re-analysis of the deposited data

Results flagged for a closer look

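In 4 members the knockdowns were called in opposite directions against the control, and the direct comparison of shBMAL1 with shARNT called the difference. The direct comparison uses the same knockdown libraries. For members chosen by opposite calls its call was therefore likely beforehand, and it adds no independent evidence. SLC38A5, the glutamine and serine carrier, differed by a log2 fold change of 1.13 (SE 0.09), and SLC6A6, the taurine carrier, by 1.02 (SE 0.06). Both were lower in all 3 shARNT libraries and higher in all 3 shBMAL1 libraries than in any control library. SLC7A6, the cationic and neutral amino acid exchanger, differed by −0.58 (SE 0.07), and SLC38A9, the lysosomal arginine sensor, by −0.49 (SE 0.12), both higher in every shARNT and lower in every shBMAL1 library than in the control. For SLC38A9 the calls against the control were lost in 6 and 3 of the 6 fits that left out a library, whereas the direct call was lost in none of its 6. SLC6A6 and SLC7A6 share exonic bases with a gene on the opposite strand.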

How the results depend on the processing

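A minimum change of 1.5-fold left 9 called members under shARNT, 6 under shBMAL1 and 5 in the direct comparison, out of 22, 21 and 17. Over all genes it left 1200 of 5376, 2606 of 7005 and 2058 of 6438, so most calls are of changes under 1.5-fold. All other settings kept each count within 1.5 times. Leaving out single libraries gave 20 to 22, 18 to 21 and 14 to 18 called members. Over all genes the same fits called 4197 to 4503, 5748 to 6349 and 5106 to 5929.

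Replicate numbers did not pair the libraries (correlations of same-numbered deviations −0.152 to 0.105), and not every library correlated best with its own number. A fit with the replicate block called 20, 20 and 17 members, and 4151, 5743 and 5386 of all genes. The member calls it lost were SLC38A2 and SLC38A9 under shARNT (adjusted p 0.127 and 0.213) and SLC38A9 under shBMAL1 (0.13). The block also turned SLC6A8 under shBMAL1 to −0.0045.

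Direction changed only in values that were not called. Over single libraries left out, log2 fold changes ran under shARNT from −0.016 to 0.18 for SLC43A1 and from −0.14 to 0.029 for SLC7A7. Under shBMAL1 they ran from −0.24 to 0.071 for SLC38A6, −0.030 to 0.24 for SLC43A2 and −0.097 to 0.098 for SLC6A8. In the direct comparison the ranges were −0.017 to 0.096 (SLC1A1), −0.014 to 0.064 (SLC1A4), −0.14 to 0.042 (SLC36A4), −0.041 to 0.068 (SLC38A10) and −0.094 to 0.026 (SLC6A9). The cause was not tested.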
